A study of Mus musculus with 80 samples.

Results

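The reporters described here are the barcoded integrations on chromosome 1 of mouse embryonic stem cells. They were taken from the deposited table as every chromosome 1 entry, in all 4 pools of cells, with 10 or more genomic DNA counts in each of the 8 DNA libraries of its pool. This left 805 of 817 chromosome 1 reporters, out of 10785 reporters past the same minimum and 10903 in all. The 12 that were left out had a lowest DNA count of 5 to 9, and the 4 closest on the inside had one of 10 to 12. Pool A held 172 of the 805 reporters, pool B 179, pool C 230 and pool D 224. They lie between positions 3884441 and 197024744 of the mm9 build, with a median gap of 117 kb. The longest gap is 3.76 Mb (chr1:146854018-150612185). The reporters were selected on their DNA counts. The words low and high, used below for windows chosen by RNA/DNA without dox, and kept, used for reporters chosen by RNA at dox 100, rest on measured values, which are given as descriptions.

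The cells are of the EBRTcH3 line, in which the tetracycline-controlled transactivator (tTA) is expressed at ROSA26. Reporter plasmids were inserted with the piggyBac transposon, each carrying its own barcode, and the barcode was counted in RNA and in genomic DNA (the assay called TRIP). Every group shares that genotype, and the groups differ by the doxycycline (dox) dose: none, 0.01, 0.1 or 100 ng/ml for 72 h. Each pool was grown as 2 cultures, which are the replicates at every dose and are technical replicates per the labels. The cells had been sorted for low eGFP before the pools were set up, and the line is the only one used. The titles name a tet-Off reporter while the culture protocols also mention an mPGK promoter, and the titles were followed here.

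In a tet-Off system, tTA binds operator sites beside a minimal promoter and activates it, and dox releases tTA from the operators. Reporters of this kind carry the same promoter to many places in the genome, and are used to compare expression between those places. Broad stretches of mammalian chromosomes are known to differ in how far they permit transcription: gene-rich, early replicating stretches tend to be active, and lamina-associated stretches tend to be silent.

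The barcodes below identify the reporters on which the account of dox 100 turns most. The first 4 lie together near 168 Mb, 1 from each pool, and held RNA at the highest dose. The last 2 come from the highest stretch of the chromosome without dox, where 1 held its RNA and the other lost it. No part of a barcode is set in capitals, because the whole of it is the counted tag.
Pool C, position 168056327, plus strand: tattatatctgcacgg
Pool A, position 168059314, plus strand: agcaacctacgtctta
Pool D, position 168067445, minus strand: cagatttgaaaatcta
Pool B, position 168072567, plus strand: taaattcaactagtac
Pool D, position 88394329, minus strand: atatgggtggggttgc
Pool D, position 88601132, minus strand: agtcaacaatatcaaa

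Over all chromosomes, DNA libraries held 928128 to 1571280 counts and RNA libraries 729552 to 1840870. Chromosome 1 took 6.65% to 8.29% of the DNA counts and 2.60% to 13.7% of the RNA counts, depending on the library. The median RNA count of a chromosome 1 reporter was 146 to 273.5 without dox and 0 in every library at dox 100. Of the 805 barcodes, 62 also mark another reporter in the deposited table. The pools and positions of these duplicates were not compared. Because the barcode reads are PCR products without molecular identifiers, floors cover counting error only. A level is the log2 of RNA over DNA, each with 1 added to the count and each relative to its library total. It is the mean of the 2 replicates, minus the mean of all reporters of that pool at that dose.

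Without dox, chromosome 1 reporters lay slightly below the rest of the genome. The difference from the other chromosomes was −0.46 in pool A, −0.16 in pool B, −0.48 in pool C and −0.21 in pool D on the log2 scale. All 4 pools were below 0, with a mean of −0.33 ± 0.16 (SD, n = 4 pools; exact sign-flip test, two-sided p = 0.13, the smallest that 4 pools allow). The mean difference was −0.36 ± 0.14 at dox 0.01, −0.29 ± 0.28 at dox 0.1 and −0.09 ± 0.28 at dox 100 (SD, n = 4). At dox 100, 2 of the 4 pools were below 0. The drift with dose did not pass the threshold over the 4 pools (exact permutation of the doses within pools, p = 0.065).

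Mean levels without dox differed between stretches of the chromosome. It was divided into windows of 5 Mb, numbered from 1 to 40 from its start, of which 33 held 10 or more reporters. Of these, 10 (30.3%) had a mean level of −1 or lower without dox, against 18.9% of 440 such windows over the whole genome. Only 1 (3.03%) had a mean of 1 or higher, against 11.4% over the genome. These shares describe the windows and carry no test. Reporters of the same window also differed. In the 33 windows, the SD between reporters without dox ran from 1.31 in window 23 to 2.67 in window 39.

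**Figure D1:**
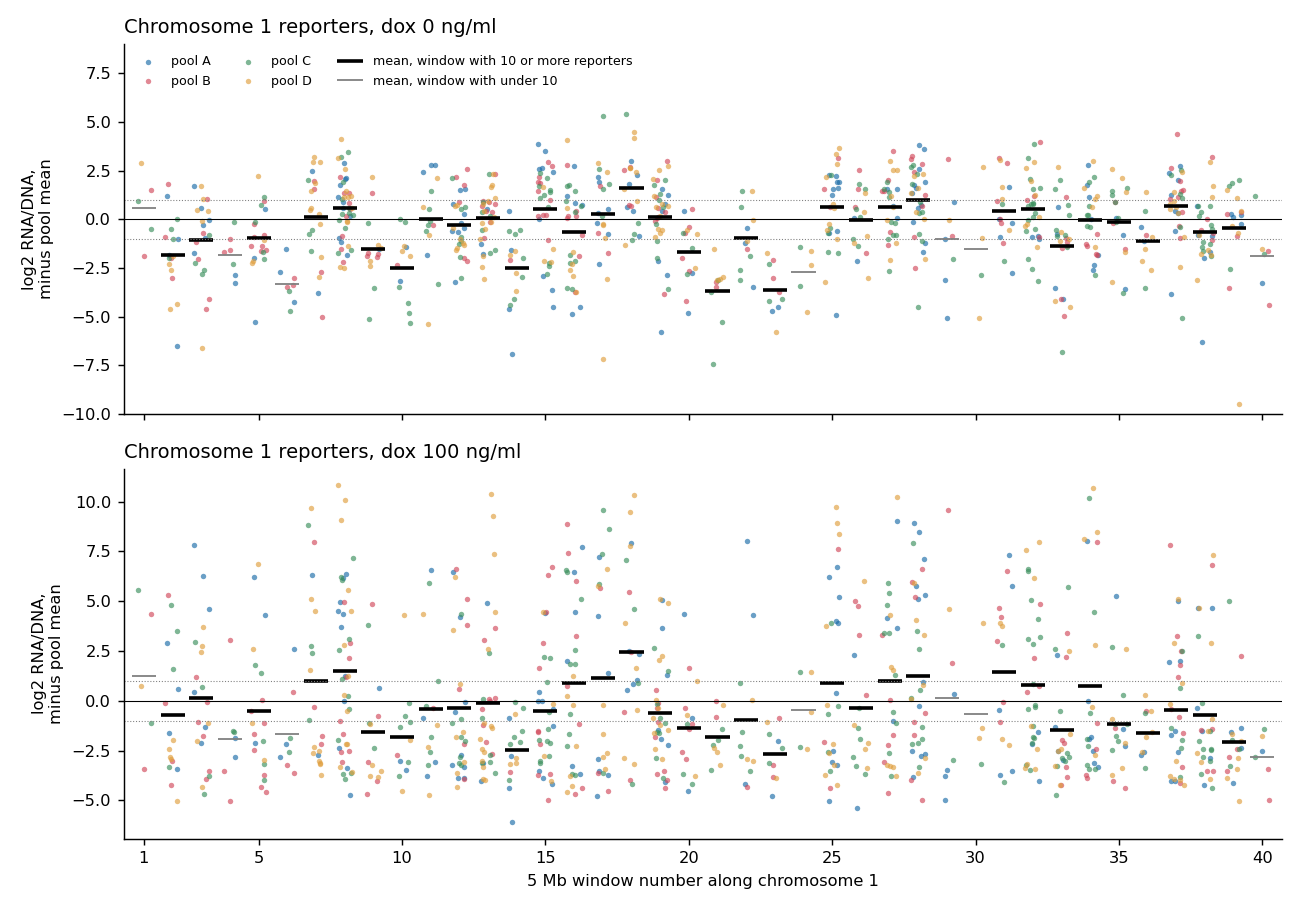
Level of each chromosome 1 reporter (log2 RNA/DNA minus the pool mean, y axis) by 5 Mb window number (x axis) without dox and at dox 100; points are reporters coloured by pool, and bars are window means over reporters. Windows 21 and 23 lie lowest without dox, at −3.68 and −3.61, and window 18 highest, at 1.58; at dox 100 the points of most windows divide into an upper and a lower group.

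The lowest stretch lay between 100 and 115 Mb. Window 21 (chr1:100000001-105000000) averaged −3.68 over 10 reporters, with pool means of −3.34 in B, −4.87 in C and −2.67 in D and no reporter from A. Window 23 (chr1:110000001-115000000) averaged −3.61 over 10 reporters, with pool means of −4.60 in A, −2.94 in B, −3.51 in C and −3.75 in D. The ranges of their pool means overlap, so the order of these windows is not resolved. None of the 20 reporters in windows 21 and 23 was above 0, and their highest levels were −1.53 and −1.71. Their low levels stood beside ample DNA: in window 23 the mean DNA count per library ranged from 90.6 to 1261 between reporters, while the higher of a reporter's 2 RNA counts ranged from 2 to 150. Window 22 between them was less low, at −0.98, with pool means from −1.71 in A to 0.11 in D and 3 of 12 reporters above 0.

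Other low windows were spread along the chromosome. Window 14 (chr1:65000001-70000000) averaged −2.50 over 16 reporters, with pool means from −3.17 in A to −2.11 in B. Window 10 (chr1:45000001-50000000) averaged −2.49 over 12 reporters, with pool means from −3.00 in C to −1.64 in D. Window 2 (chr1:5000001-10000000) averaged −1.84 over 17 reporters and was more mixed, with pool means from −3.13 in D to −0.86 in C and single reporters from −6.49 to 1.82. These 3 windows, with windows 21 and 23, are the 5 lowest of those with 10 or more reporters. Windows 20 (−1.69), 9 (−1.53), 33 (−1.36), 36 (−1.11) and 3 (−1.08) make up the rest of the 10 at −1 or lower. Windows 6 (−3.33, 8 reporters), 24 (−2.70, 5 reporters), 40 (−1.90, 6 reporters), 4 (−1.84, 7 reporters), 30 (−1.55, 4 reporters) and 29 (−1.01, 8 reporters) were low on fewer reporters.

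The high end was narrower. Window 18 (chr1:85000001-90000000) averaged 1.58 over 22 reporters, with pool means of 1.21 in A, 1.66 in B, 0.85 in C and 2.19 in D, and 17 of its reporters were above 0. Window 28 (chr1:135000001-140000000) followed at 0.97 over 37 reporters, with pool means from 0.49 in C to 1.27 in B. Windows 37 (0.71, 33 reporters), 25 (0.64, 28 reporters) and 27 (0.62, 28 reporters) were the next highest. The pool means of window 18 overlap those of windows 25, 27, 28 and 37. Single reporters in these windows still ranged widely, from −4.90 to 3.66 in window 25 and from −5.05 to 4.38 in window 37.

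The single highest reporters lay near 85 and 88 Mb, and the lowest had almost no RNA beside many DNA counts. The pool C reporter at 88403552 stood at 5.38, with 890 and 850 RNA counts beside 29 and 24 DNA counts, so its level rests on few DNA counts. At 84836368 in pool C the level was 5.29, with 118 and 30 DNA counts. Pool D at 88394329 stood at 4.46, with 6670 and 6541 RNA counts beside 408 and 345 DNA counts. The other two of the 5 highest were the pool B reporter at 182875713 (4.38) and the pool D reporter at 88601132 (4.15). Lowest was the pool D reporter at 190951362, at −9.47, with 0 RNA counts in both libraries beside 819 and 968 DNA counts. Those at 103816091 and 160765131, both in pool C, also had 0 RNA counts in both libraries, and stood at −7.41 and −6.81. In pool A at 66751600 there were 15 RNA counts in each library beside 2495 and 4199 DNA counts, a level of −6.93. The pool D reporter at 84856836 (−7.16) had 3 and 0 RNA counts, and is taken up again with its neighbours.

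Low windows chosen in 1 pair of pools were also low in the other pair, whose values had no part in the choice. A window was chosen where at least 4 reporters of pools A and B, or of pools C and D, averaged −1 or lower without dox. Pools A and B chose 12 such windows (windows 2, 3, 4, 5, 6, 9, 14, 20, 22, 23, 29 and 33), and all 12 were below 0 in pools C and D. Of the 9 that had 4 or more reporters there, 6 were at −1 or lower again. Pools C and D chose 11 (windows 2, 3, 9, 10, 14, 20, 21, 23, 24, 30 and 36). Of these, 9 held reporters of A or B and all 9 were below 0, and 6 of the 6 with enough reporters were at −1 or lower again. The 6 windows low in both pairs were 2, 3, 9, 14, 20 and 23.

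Read in the pools that did not choose them, low windows lay 1.48 to 1.95 below the other chromosome 1 windows without dox. The differences were −1.71 in pool A, −1.95 in B, −1.48 in C and −1.52 in D, a mean of −1.67 ± 0.21 (SD, n = 4 pools; exact sign-flip test, two-sided p = 0.13, the smallest possible). The gap persisted at every dose, at −1.74 ± 0.46 at dox 0.01, −1.78 ± 0.44 at dox 0.1 and −1.40 ± 0.24 at dox 100, with all 4 pools below 0 each time (p = 0.13 each, same exact test). No trend of the gap with dose passed the threshold (exact permutation p = 0.242), and its direction depended on the pseudocount and the window size. The median DNA count in low windows was 561, 502, 233 and 310 in pools A to D, beside 418, 510, 244 and 267 in the other windows.

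Fewer windows were chosen as high. Pools A and B chose 4 (windows 11, 18, 27 and 28), of which 3 were above 0 and 1 was at 1 or higher in pools C and D. Window 11 (chr1:50000001-55000000) was the exception, at 1.17 over 5 reporters in A and B and −0.57 over 10 in C and D. Pools C and D chose window 18 alone, which was also at 1.39 over 10 reporters in A and B. Read in the other pools, high windows lay 1.69 above the others in pool A, 1.85 in B, 0.76 in C and 1.34 in D without dox, a mean of 1.41 ± 0.48 (SD, n = 4 pools; exact sign-flip p = 0.13). For pools A and B this rests on 6 and 4 reporters of window 18. The differences were 1.68 ± 0.59 at dox 0.01, 2.22 ± 0.85 at dox 0.1 and 1.58 ± 0.55 at dox 100 (SD, n = 4), with no trend past the threshold (exact permutation p = 0.363). The change from no dox to dox 100, 0.17, was −0.27 with a pseudocount of 5 and −0.15 with windows of 10 Mb. It passed the threshold without a DNA minimum (0.64) and without pool B (0.48, exact permutation p = 0.0433).

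**Figure D2:**
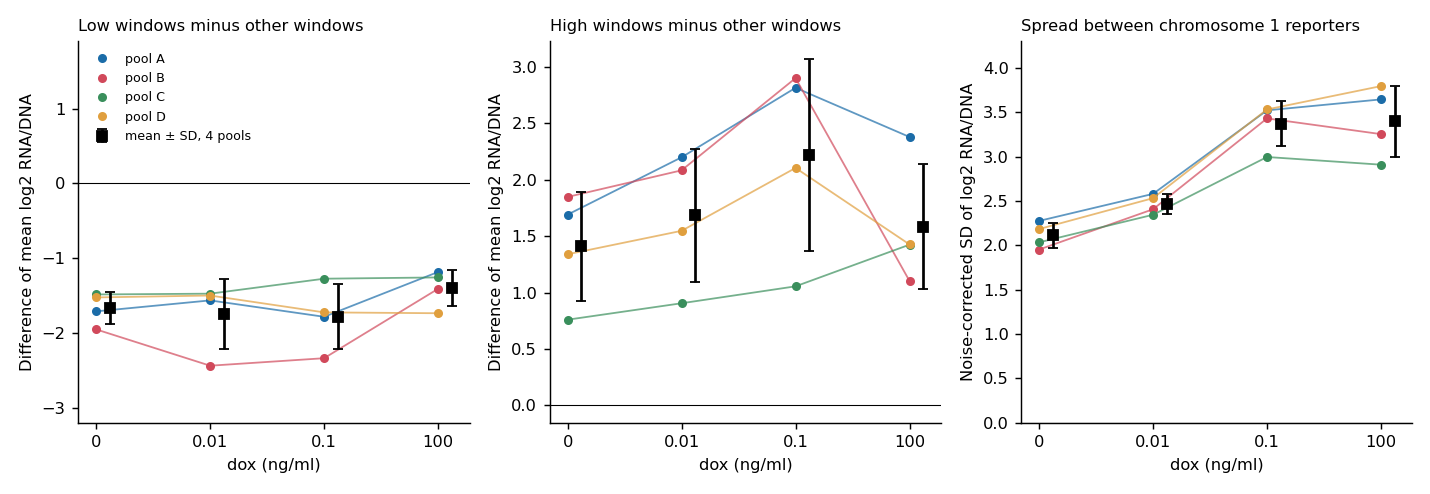
Low windows minus other windows and high windows minus other windows (difference of mean log2 RNA/DNA, each pool read with windows chosen in the other pair of pools), and the noise-corrected SD between all chromosome 1 reporters, by dox dose (ng/ml, categories, not to scale); coloured points are pools and black squares are means ± SD over 4 pools. Low windows stay below 0 and high windows above 0 in all 4 pools at all 4 doses, and the spread rises from 2.11 to 3.40.

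With rising dox, the measured spread between reporters grew. The noise-corrected SD between chromosome 1 reporters, which uses only variation shared by the 2 replicates, was 2.11 ± 0.15 without dox, 2.47 ± 0.11 at dox 0.01, 3.37 ± 0.25 at dox 0.1 and 3.40 ± 0.40 at dox 100 (SD, n = 4 pools). It rose in all 4 pools (exact permutation of the doses within pools, p = 4.22e-05). The other chromosomes went from 1.98 ± 0.04 to 3.42 ± 0.08, and the difference between chromosome 1 and the rest was 0.13 ± 0.15 without dox and −0.02 ± 0.37 at dox 100 (exact sign-flip p = 0.25 and 0.875). RNA counts were lost over the same doses. Without dox, 3 of 805 reporters had no RNA count in either replicate, and 8 had none at dox 0.01. At dox 0.1 this held for 183 and at dox 100 for 406. By pool this share was 22.5% ± 2.85 at dox 0.1 and 49.9% ± 4.77 at dox 100, where on the other chromosomes it was 18% ± 1.93 and 47.9% ± 2.05 (SD, n = 4 pools). A reporter without RNA has a level set by its DNA count and the pseudocount, so levels at the lower end at dox 100 are floors. How much of the rise in spread rests on such floors was not tested.

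Reporters were then tested one at a time for a change in RNA relative to DNA, with edgeR's quasi-likelihood test and Benjamini-Hochberg adjustment within each pool. RNA libraries are scaled to one another, so higher and lower are relative to the other reporters, and a common fall of RNA cannot be seen. At dox 100 against no dox, 495 of the 805 chromosome 1 reporters passed the threshold in either direction (61.5%), where 61.3% of all reporters did. Of the 805, 402 (49.9%) were lower, where 50.4% of all reporters were. A further 93 (11.6%) were higher, where 10.9% of all reporters were. By pool, 46.5% to 52.2% were lower and 10% to 14.7% higher. The shares on chromosome 1 are thus near those of the genome. RNA was absent from both dox 100 libraries for 351 of the 402. The median log2 change was −4.28 on chromosome 1 and −4.12 over all reporters. The split depends on scaling: 18.8% of the chromosome 1 calls were higher with TMM, 11.5% (59 of 511) with DESeq2 size factors, where the median change was −4.80, and 8.81% (46 of 522) with library totals, where it was −5.04. Without replicate 2 of the libraries at no dox, 60 were higher. The median change was −7.02 without replicate 1 and −5.97 without replicate 2 of the libraries at dox 100.

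The middle dose changed fewer reporters. At dox 0.1, 247 passed the threshold (30.7%), where 28.9% of all did, and 326 had an unadjusted p under 0.05 (40.5%), where 37.9% of all did. Of the 247, 172 (21.4% of the 805) were lower, where 19.8% of all were, and 75 (9.32%) were higher, where 9.07% of all were. Higher calls made up 30.4% of these with TMM, 12.5% with library totals and 15.2% with the size factors of DESeq2. Without replicate 1 of the libraries at no dox 154 calls were made, and without replicate 2 it was 142. At dox 0.01, no reporter was lower and 1 was higher by edgeR's quasi-likelihood test, where 0.0185% of all reporters were higher, while 37 had an unadjusted p under 0.05 (4.60%), where 4.93% of all did. DESeq2 called 6, of which 5 were lower.

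Reporters that lost all RNA at dox 100 included some of the strongest on the chromosome. In pool B at 136892811, RNA counts were 5706 and 5697 without dox, 3661 and 3579 at dox 0.01, 452 and 417 at dox 0.1, and 0 and 0 at dox 100, beside 1058 and 1570 DNA counts at the last dose. This is at least 901-fold lower against a floor of 3 counts over the 2 libraries (edgeR adjusted p = 7.49e-07). In pool A at 122530968 the counts went from 3651 and 4383 over 251 and 445 at dox 0.1 to 0 and 0, at least 882-fold lower (edgeR adjusted p = 8.20e-07). In both reporters the counts were lower at each higher dose in both replicates, and the doses do not overlap. The pool D reporter at 88601132 fell from 3283 and 2953 counts to 0 and 0, at least 742-fold lower (edgeR adjusted p = 2.97e-06). These bounds, and those that follow, cover counting error only. On chromosome 1, 157 reporters had 0 counts in 1 dox 100 library and 10 or more in the other. A 0 can thus stand beside RNA in the other replicate, and the true fall may be smaller than a bound.

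The other 7 of the 10 largest decreases also ended at 0 counts in both libraries, with bounds from at least 334-fold to at least 539-fold. They lie at 133176848, 137610816, 89555995 and 90498752 in pool B, at 187317841 and 34909292 in pool D and at 53360293 in pool A. Of these 10, 2 lie in window 18 (89555995 and 88601132) and 2 in window 28 (136892811 and 137610816), so the highest windows without dox held strong reporters without a single RNA count at dox 100. At dox 0.1 the largest decreases were at 54981854 and 81812094 in pool A and 90177087 in pool B. Each had 291 to 640 RNA counts per library without dox and 0 in both libraries at dox 0.1, and they were at least 194-fold, at least 164-fold and at least 138-fold lower.

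Reporters that became relatively higher at dox 100 started from varied levels. Increases were ranked among called reporters with 10 or more RNA counts in both dox 100 libraries. The first of these was in pool B at 168072567, with 59 and 45 RNA counts beside 156 and 128 DNA counts without dox, and 243 and 361 RNA counts beside 23 and 100 DNA counts at dox 100. Its log2 change was 5.90 ± 0.87 (SE taken as the absolute change divided by the square root of F; edgeR adjusted p = 0.000167). The DNA counts fell as well, so the ratio moved in numerator and denominator. In pool A at 106248270, RNA rose from 159 and 184 to 1688 and 1851 counts while DNA went from 302 and 502 to 213 and 394, a log2 change of 5.40 ± 0.53 (SE; edgeR adjusted p = 1.19e-05). That reporter lies in window 22, between the 2 lowest windows, where 3 of the other 11 reporters had RNA at dox 100.

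Pool D at 34162333 went from 1518 and 1409 to 10324 and 10763 RNA counts, with a log2 change of 5.39 ± 0.40 (SE; edgeR adjusted p = 2.97e-06). At 20562516 in pool A, a level of −1.97 without dox became 6.24 at dox 100, with 101 and 145 RNA counts rising to 838 and 1007 (log2 change 5.14 ± 0.52, SE; edgeR adjusted p = 1.41e-05). For both, the RNA counts of these doses do not overlap. Pool C at 180147004 went from 7 and 4 to 39 and 107 RNA counts, so the lowest reporter of window 37 without dox held RNA at dox 100 all the same (4.94 ± 0.86, SE; edgeR adjusted p = 0.000471). The rest of the 10 largest of these increases lay at 63183146, 155225769 and 36111036 in pool D, 137302724 in pool B and 168056327 in pool C, with log2 changes from 5.07 to 5.88.

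A reporter is called kept here where both dox 100 libraries held 10 or more of its RNA counts. Of the 805 chromosome 1 reporters, 222 (27.6%) were kept, where 29.1% of all reporters were. By pool the share was 31.4% in A, 27.4% in B, 25.2% in C and 27.2% in D. Few counts lay near the minimum: 1 kept reporter had a lower count of 10 to 15, and 11 that were not kept had one of 1 to 9. The 2 libraries often disagreed, however. In all, 168 reporters had 10 or more counts in 1 library only, and 157 of these had 0 in the other. The kept state thus depends on requiring both libraries. Of the 222, 92 were called higher at dox 100, 20 lower and 110 neither. The calls use the RNA counts that set the kept state, so these numbers are a description. Kept reporters made up 97.5% of the chromosome 1 RNA counts at dox 100, and the top 10 alone 47.8%, against 12.8% for the top 10 without dox. These sums weight pool D most, since chromosome 1 took more of its RNA at dox 100 than in the other pools. Within single pools the top 10 made up 59.4% to 77.3% at dox 100 and 24.6% to 36.8% without dox.

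Kept reporters were also the stronger ones in the cultures without dox. There their level exceeded that of the other chromosome 1 reporters by 2.03 in pool A, 1.88 in B, 1.44 in C and 2.18 in D, a mean of 1.88 ± 0.32 (SD, n = 4 pools; exact sign-flip test, two-sided p = 0.13, the smallest possible). At dox 0.01 the difference was 2.56 ± 0.36 and at dox 0.1 it was 4.95 ± 0.52, again with all 4 pools above 0. When reporters were ranked by their level without dox, and divided into 4 equal groups, 6.44% of the lowest group were kept, then 14.9%, 38.3% and, in the highest group, 50.7%. The groups overlap in both directions: 102 of the 201 reporters of the highest group were kept, and 13 of the 202 of the lowest. Median DNA counts of kept and other reporters were 692 and 388 in pool A, 505 and 510 in B, 285 and 229 in C, and 347 and 261 in D. With a DNA minimum of 100 in every library the difference in level was 1.68.

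**Figure D3:**
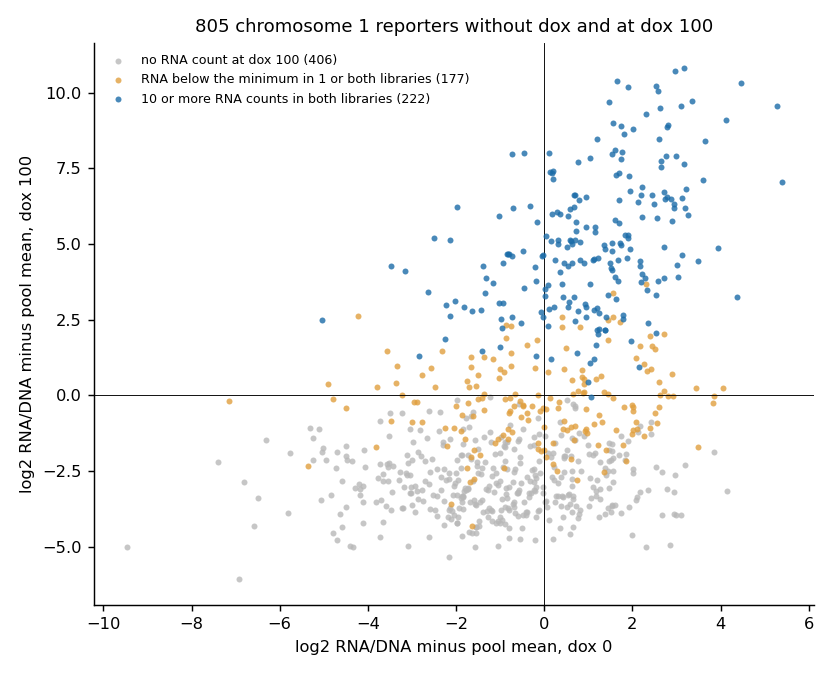
Level of each of the 805 chromosome 1 reporters without dox (x axis) and at dox 100 (y axis), both as log2 RNA/DNA minus the pool mean, coloured by RNA at dox 100. The 222 kept reporters start at −0.06 on the y axis and reach 10.81, and the 406 without RNA end at −0.06; both kinds occur over most of the x axis, and kept reporters are more frequent on its right side.

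The 10 highest kept reporters reached levels of 9.58 to 10.81 at dox 100, and 8 of them came from pool D. The highest was the pool D reporter at 36111036 (10.81), but with 26 and 78 DNA counts. Pool D at 168067445 gave the most RNA of any chromosome 1 reporter at dox 0.1 and dox 100, with 5012 and 5166 counts without dox, 9270 and 7197 at dox 0.01, 32385 and 22520 at dox 0.1, and 45733 and 45447 at dox 100, beside 791 and 880 DNA counts at the last dose. Its log2 change was 4.93 ± 0.24 (SE; edgeR adjusted p = 1.65e-07), and it alone took 15.1% of the chromosome 1 RNA counts at dox 100. The counts rose at each dose in both replicates, relative to the other reporters of the library. The others lie at 63183146, 88394329, 134369656, 36000128, 120522370 and 34162333 in pool D, at 168056327 in pool C and at 141008901 in pool B.

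Kept reporters lay near one another. Linking kept reporters separated by 50 kb or less gave 15 clusters of at least 3 kept reporters from at least 2 pools, a definition set after their values had been seen. They span 1.14 to 111 kb and hold 71 reporters, of which 68 were kept, and these made up 30.6% of the kept reporters and 51.4% of the chromosome 1 RNA counts at dox 100. Since the clusters were built from kept reporters, the share kept inside them is no result. The definition uses RNA at dox 100, so calls inside the clusters are a description too. With TMM, 36 of the 71 (50.7%) were called higher at dox 100, where 10.9% of all reporters were. With library totals 20 of the 71 were, and 27 with the size factors of DESeq2. Of all 222 kept reporters, 41.4% were called higher with TMM. Kept is also set by RNA at dox 100, so that share is a description and no test. All 4 pools occur in 4 of the clusters and 3 pools in 9.

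**Figure D4:**
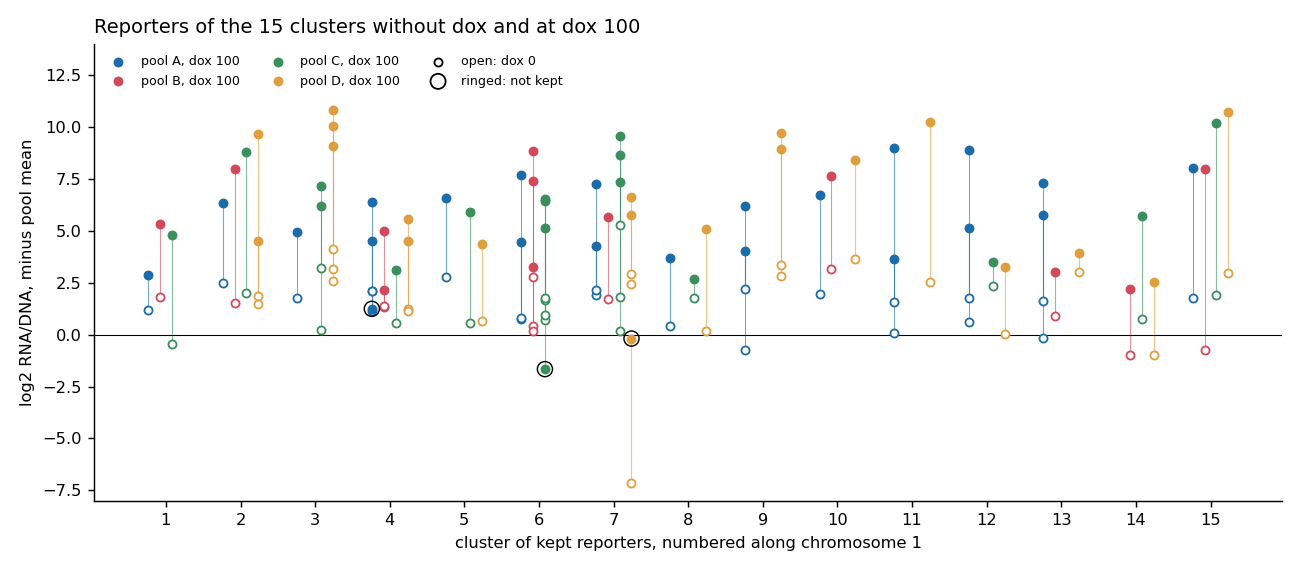
Levels (log2 RNA/DNA minus the pool mean) of the reporters in the 15 clusters of kept reporters, numbered along the chromosome on the x axis; open circles are without dox, filled circles are dox 100, colours are pools, and black rings mark the 3 reporters that were not kept. Cluster 15 lies between 7.97 and 10.70 at dox 100 in all 4 pools, and cluster 14 reaches 2.22 to 5.73.

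The last cluster, at chr1:168056327-168072567, carries the 4 barcodes printed first. Within 16.2 kb it held 1 reporter from each pool, all 4 kept, and together they gave 19.1% of the chromosome 1 RNA counts at dox 100. Beside the pool D and pool B reporters given above, pool A at 168059314 had 1039 and 1334 RNA counts without dox and 6926 and 5631 at dox 100 (log2 change 3.25 ± 0.37, SE; edgeR adjusted p = 3.03e-05). Pool C at 168056327 had 466 and 509, then 1235 and 1002, 6226 and 3979, and 6089 and 5304 RNA counts over the 4 doses. All 4 were called higher at dox 100 under each of the 3 scalings, although their levels without dox ranged from −0.73 to 2.97. The window around them was unremarkable without dox: window 34 averaged −0.02, and 13 of its 26 reporters had no RNA at dox 100.

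That pool C reporter was also the only one past the threshold at dox 0.01. Its log2 change there was 3.91 ± 0.53 (SE; edgeR adjusted p = 0.0327). Its DNA counts were 190 and 152 without dox and 36 and 25 at dox 0.01, so RNA and DNA moved in opposite directions. It was not called at that dose with a replicate block, with DNA as an offset, or without any 1 of the 4 replicates of these doses, and the adjusted p ranged from 3.81e-07 to 1.00 over 10 alternatives.

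Other clusters show how far levels can differ within a short stretch. Cluster 3 (chr1:36000128-36111036) held 6 reporters from 3 pools, all kept, with levels at dox 100 from 4.96 to 10.81. Its pool D reporter at 36000128 had 1327 and 1288 RNA counts without dox and 6123 and 6976 at dox 100 (log2 change 4.72 ± 0.39, SE; edgeR adjusted p = 4.43e-06), while the pool A reporter at 36030309 went from 2232 and 3054 to 1154 and 845, a log2 change of 0.18 ± 0.42 (SE; edgeR adjusted p = 0.739). Cluster 7 (chr1:84834225-84866244) held 9 reporters from 4 pools, of which 8 were kept, with levels from −0.19 to 9.57 at dox 100. The exception was the pool D reporter at 84856836, with 3 and 0 RNA counts without dox and 53 and 0 at dox 100, beside 268 and 242 DNA counts. Its log2 change, 6.25 ± 2.35 (SE; edgeR adjusted p = 0.0367), was the largest called increase on the chromosome, but it rests on 1 of the 2 dox 100 libraries. The call was lost with the size factors of DESeq2 (adjusted p = 0.0659), with library totals (0.0896) and with a replicate block (0.0804), all in edgeR. Only 1.16 kb away, the pool C reporter at 84855676 had 350 and 346 RNA counts without dox and 1123 and 1488 at dox 100.

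Runs of 6 or more reporters with no gap above 50 kb, kept or not (called chains here), give a view that the kept state did not choose. There were 8 of them. In 5, at chr1:34162333-34258443, chr1:36000128-36111036, chr1:39560593-39587923, chr1:77369064-77469682 and chr1:84784310-84870854, most reporters were kept (5 of 6, 6 of 6, 7 of 8, 8 of 9 and 8 of 11). In the chain at chr1:163037899-163105885 it was 3 of 6. For comparison, 27.6% of all chromosome 1 reporters and 29.1% of all reporters were kept. The chains at chr1:36000128-36111036, chr1:39560593-39587923 and chr1:77369064-77469682 have the same bounds as clusters 3, 4 and 6, so the views overlap. The share kept in chains of other chromosomes is not given here. The chain at chr1:88327171-88403552 had the second highest mean level without dox, 2.42 over 8 reporters, but only 2 were kept and its mean at dox 100 was 2.13. In contrast, the chain at 36 Mb averaged 2.50 without dox and 8.05 at dox 100. The chain at chr1:92368296-92507994 had means of −0.48 without dox and −1.08 at dox 100, levels without dox from −2.84 to 2.01, and 1 of 6 kept. No reporter of the chain at 39 Mb was called higher and 1 was called lower, although 7 of its 8 were kept.

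Within window 18, reporters that kept and lost their RNA lay side by side. Of its 22 reporters, 10 were kept, 4 had no RNA at dox 100 and 8 lay between. Levels without dox ran from −1.33 to 5.38 among the kept and from −1.04 to 4.15 among the rest. The pool D reporters at 88394329 and 88601132, whose barcodes are printed last, are 207 kb apart and had levels of 4.46 and 4.15 without dox. At dox 100 the first had 11076 and 12540 RNA counts and the second 0 and 0. With TMM, 6 of the 22 reporters were called higher and 6 lower, where 10.9% of all reporters were higher and 50.4% lower. With DESeq2 size factors the counts were 3 and 10, and with library totals 2 and 11. Shares over all reporters are not given for those scalings.

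Kept reporters made up a smaller share of the low windows than of the others in each pool. Read in the pools that did not choose the windows, 21 of 140 reporters in low windows were kept (15%), 175 of 598 in other windows (29.3%) and 26 of 67 in high windows (38.8%). By pool the share in low windows was 20.8% in A, 10.3% in B, 14.6% in C and 15.4% in D, each below that in the other windows of the same pool (26.3% to 33.1%). The share without any RNA at dox 100 was 58.6% ± 10.1 in low windows, 49.7% ± 4.76 in other windows and 25.5% ± 18.2 in high windows (SD, n = 4 pools). In pool A it was 45.8% in low and 49.3% in other windows, so this measure did not separate them in every pool. Called decreases were 46.4% of the reporters in low windows, 52.0% in other windows and 38.8% in high windows, where 50.4% of all reporters were lower, and many reporters of low windows had little RNA without dox. Over all 4 pools, choosing pools included, all 10 reporters of window 23 had no RNA at dox 100, of which 5 were called lower. Counted in the same way, windows 14, 21 and 36 had no kept reporter among 16, 10 and 10. Windows 21 and 36 were chosen by pools C and D only, and held 2 and 3 reporters of A and B.

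The kept reporters of low windows came in different numbers, as did the reporters read there. Window 3 held 7 kept among 22 (31.8%) and window 2 held 5 among 17 (29.4%), where 29.1% of all reporters were kept. Window 9 held 2 among 14 and window 20 held 1 among 15. In windows 5, 29 and 33 only pools C and D were read, with 3 kept among 9, 1 among 2 and 2 among 15. In window 2, the 3 reporters of cluster 1 lie between 9879009 and 9880150, were all kept, and stood at 1.20 (pool A), −0.47 (pool C) and 1.82 (pool B) without dox. The pool B reporter at 9880150 had 4707 and 4977 RNA counts without dox and 1757 and 2347 at dox 100. At 9888097, 7.95 kb further on, a pool C reporter had 57 and 65 RNA counts without dox, 62 and 64 at dox 0.01, and 0 in all 4 libraries of the next doses, beside 229 and 387 DNA counts at dox 100. The pool C reporter at 9879010, by comparison, had 146 and 127 RNA counts without dox and 141 and 158 at dox 100. Among the 21 kept reporters in low windows, 9 were called higher with TMM. Of all kept chromosome 1 reporters 41.4% were, and of all reporters 10.9%. With library totals 2 of the 21 were called higher, and 2 with the size factors of DESeq2. Kept reporters were chosen by RNA at dox 100, which the call uses too.

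Neighbours from different pools, which share no culture, resembled each other at short range. Over pairs of chromosome 1 reporters, Pearson's r of the levels without dox was 0.314 under 10 kb (112 pairs), 0.361 at 10 to 100 kb (414 pairs) and 0.210 at 100 kb to 1 Mb (2678 pairs). At dox 0.1 these were 0.549, 0.541 and 0.140, and at dox 100 they were 0.575, 0.401 and 0.0246. The similarity at the longest distance thus had the lowest value at the dose where the shortest had its highest. The pairs share reporters and libraries, so these are descriptions without a test. Under 10 kb the value without dox was −0.0403 over the 49 pairs left by a DNA minimum of 100. The cause of this change was not tested.

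**Figure D5:**
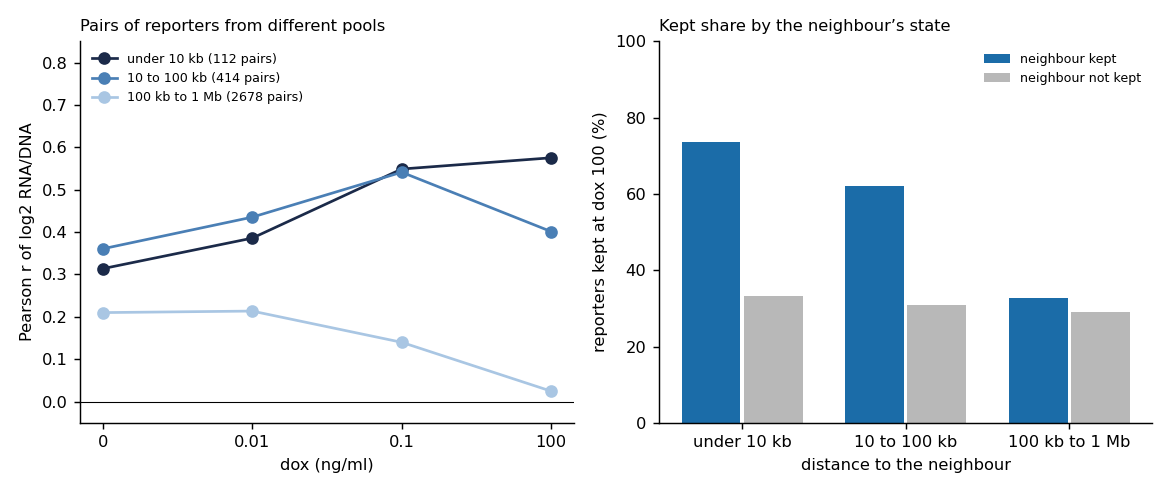
Left, Pearson's r of log2 RNA/DNA between chromosome 1 reporters of different pools by dox dose (ng/ml, categories) for 3 ranges of distance. Right, the share kept at dox 100 (%) by whether the neighbour from another pool was kept, with each pair read from both sides. The longest range falls from 0.210 to 0.0246, and under 10 kb the kept share is 73.6% beside a kept neighbour and 33.3% beside one that was not.

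The kept state followed the same ranges. Each pair was read from both sides, so a reporter counts once for every pair it is in. Under 10 kb, the 112 pairs come from 151 reporters. Among these pairs, 73.6% of 125 readings beside a kept neighbour were of kept reporters, and 33.3% of 99 beside a neighbour that was not. Between 10 and 100 kb this was 62.0% against 30.9%, and beyond, up to 1 Mb, 32.7% against 29.0%. The kept share over all chromosome 1 reporters was 27.6%. As pairs share reporters and libraries, these shares are descriptions without a test. Beside a neighbour without RNA at dox 100, 57.7% of readings under 10 kb also had none, against 12.8% beside a neighbour with RNA. In 3 pairs the deposited positions were 1 bp apart, on opposite strands, and in each pair both reporters shared their state: kept at 9879009 and 9879010, and without RNA at 68331356 and 68331357 and at 189244681 and 189244682. The last of these pairs lies within pool C, so its reporters share their cultures and libraries, while the others join pools A and C.

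The orientation of the reporters was compared too. Of the 805 reporters, 402 are annotated to the plus and 403 to the minus strand. Minus-strand reporters lay above plus-strand ones by 0.71 in pool A, 0.07 in B, 0.23 in C and 0.64 in D, a mean of 0.41 ± 0.31 (SD, n = 4 pools; exact sign-flip test, two-sided p = 0.13, the smallest possible). On the other chromosomes the mean was −0.04 ± 0.08. At dox 100 the chromosome 1 difference was −0.03 ± 0.45, with 2 pools above 0 and 2 below.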

How the data were processed

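The authors deposited a table of read counts per barcode, named as counts per the file headers and taken as not normalized because the values are whole numbers whose totals differ between columns, with separate RNA and DNA columns and the pool, chromosome, position and strand of each reporter. The submitters' processing notes name Bowtie2 2.0 and the mm9 build, but not what each was used for. For barcode calling, tools are not given in the sources used here. RNA and DNA libraries number 64, and 16 mapping libraries enter through the positions only. The table had 0 columns of sample values left unused. Genes and other annotations were not analysed here.

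Counts were fitted per pool over its 16 libraries and all chromosomes with edgeR 4.0.16 in R 4.3.3: a model with assay, dose and the interaction of both, TMM factors computed separately for RNA and DNA, quasi-likelihood tests, and Benjamini-Hochberg adjusted p-values per pool (threshold 0.05). Levels, windows of 5 Mb and neighbours used Python 3.11.15 with numpy 2.4.6 and pandas 2.3.3. The edgeR script was tested on simulated counts of pool D, where a small part of the reporters changed, as many up as down. In the data 61.3% of all reporters were called at dox 100 and 50.4% were lower. The simulation is therefore no check of the scaling at that dose. Pools, of which there are 4, are the units of the exact tests. p-values from the 2 cultures measure their spread, which is technical per the labels. The replicate number marks a culture shared by the 4 doses per the labels' protocols, yet same-numbered libraries deviated together little (r from −0.0537 to 0.0463). With replicate number as a block, the call at dox 0.01 was lost and the other counts moved by less than 1.5 times.

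Named reporters are the 10 largest called changes in each direction at dox 100 and the 3 largest at dox 0.1, with the same sign in both replicates and, for increases, 10 or more RNA counts in both libraries of that dose, every call at dox 0.01, the 10 highest at dox 100, the 5 highest and 5 lowest without dox, and chains of 6 or more. Cluster members and neighbours beyond these were named after their values were seen. The reporters, lists and rules were chosen with earlier results of these data known.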

Additional observations from a re-analysis of the deposited data

Results flagged for a closer look

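A pool was set apart from the other 3 in 2 of 46 sets of pool values examined, about what chance gives, at roughly 1 in 20. At dox 0.01, pool B had a low-window difference of −2.44, where pools A, C and D lay between −1.56 and −1.47. At the same dose, the difference between kept and other reporters was 2.02 in pool C, where the other pools lay between 2.72 and 2.79.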

How the results depend on the processing

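Most alternatives kept the direction and side of the threshold. With DESeq2 size factors the higher calls numbered 59 at dox 100 and 46 at dox 0.1, and with library totals 46 and 39, beside 274 lower calls at dox 0.1. A DNA minimum of 100, which keeps 547 reporters, left 267 lower calls at dox 100, 110 at dox 0.1 and 0 calls, 0 higher, at dox 0.01. DESeq2's own test gave 310 lower calls at dox 0.1 and 6 calls, 5 of them lower, at dox 0.01. With DNA as an offset there were 153 calls at dox 0.1, 98 of them lower, and 0 at dox 0.01.

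With a replicate block (the paired analysis), 468 calls were made at dox 100, 216 at dox 0.1 and 0 at dox 0.01, and 466 and 216 of these were among the unblocked calls. Leaving out 1 replicate gave 60 to 93 higher calls and 308 to 481 lower calls at dox 100. At dox 0.1 it gave 142 to 281 calls, 98 to 217 of them lower and 44 to 75 higher, with 154 calls without replicate 1 and 142 without replicate 2 of the libraries at no dox. At dox 0.01 it gave 0 to 0.

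The change of the chromosome 1 difference from dox 0 to dox 100 (0.24) became significant with a pseudocount of 5 (0.24, exact permutation p = 0.0158) and without pool B (0.36, p = 0.012). That of low windows (0.27) was −0.17 with a pseudocount of 0.1 and −0.0797 with windows of 2.5 Mb, and passed the threshold at 0.46 with a pseudocount of 5 and 0.66 with windows of 10 Mb. That of high windows (0.17) was −0.27 with a pseudocount of 5 and −0.15 with windows of 10 Mb, and passed at 0.64 without a DNA minimum and at 0.48 without pool B. The causes were not tested. Leaving out a pool was added after seeing the data.

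Neighbour r under 10 kb was 0.261 with a pseudocount of 0.1 and −0.0403 with a DNA minimum of 100. With single replicates it was 0.272 to 0.342, 0.301 to 0.379 at 10 to 100 kb and 0.186 to 0.214 beyond. Window 11, at 0.01, was −0.50 with a DNA minimum of 100, −0.14 about the pool median, and −0.12 to 0.14 with single replicates.

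Depth limits the lowest levels: at dox 100 a reporter without RNA is known only to lie under a floor that its DNA count sets.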
